A study of Saccharomyces cerevisiae and Saccharomyces cerevisiae x Saccharomyces paradoxus and Saccharomyces cerevisiae x Saccharomyces mikatae with 18 samples.

Results

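The expression of Saccharomyces mikatae alleles was compared between a diploid interspecific hybrid, in which each allele shares the nucleus with its S. cerevisiae ortholog, and the purebred S. mikatae homozygote. The libraries were chosen by their labels alone: 4 of the 18 in the series, with 2 replicate cultures of the hybrid and 2 of the homozygote. The hybrid was strain YYM030, made by mating the S. cerevisiae strain BY4716 to the S. mikatae strain JRY9175. Its genotype in the study's strain list is MATa/MATalpha with a his3 deletion on the S. mikatae side and a lys2 deletion on the S. cerevisiae side. The homozygote was the wild-type diploid IFO 1815, MATa/MATalpha, so that neither group carried a transgene and only the hybrid carried the auxotrophic deletions. Each group was a single strain. For reference, S. cerevisiae alleles were read in the same hybrid libraries and in the diploid YHL068, whose strain-list genotype is heterozygous for lys2, leu2, his3, met15 and ura3 alleles. S. paradoxus alleles were read in the hybrid YYM014 (BY4716 and OZY361, heterozygous for lys2, ade2 and ura3) and in the wild-type diploid CBS 432. S. bayanus alleles were read in the hybrid YYM015 (BY4716 and JRY9191, heterozygous for lys2, his3 and ura3) and in the wild-type diploid CBS 7001. All cultures were in log phase in the rich glucose medium YPD at 25°C, at an optical density of 0.65 to 0.75 at 600 nm. The S. mikatae parent of the hybrid and the homozygote were different strains, and the labels give no batch or date, so that effects of strain, of preparation and of hybrid state cannot be told apart.

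In a hybrid, regulators encoded by both genomes are present in the same cell. An allele's expression in the hybrid reflects the DNA sequence on its own chromosome acting on this shared pool, whereas in the homozygote the same allele meets regulators of its own species only. The difference between both settings for a single species' allele therefore reads out changes in the trans-acting environment, together with any effect of hybrid state and of how reads are assigned to alleles.

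Sequencing covered the ends of poly-adenylated transcripts, strand by strand. The deposited values per gene were reads weighted for GC content and rounded, and each column was scaled by its upper quartile, the value that 1 gene in 4 exceeds. Values given as scaled are on that scale, and log2 differences are hybrid minus homozygote of log2(scaled value + 1). Totals were 2839480 and 2986880 for the S. mikatae alleles of the hybrid replicates, against 6627538 and 5934405 for the homozygote replicates, and all 4 columns listed the same 4730 genes. Of these, 86 and 75 genes were listed at 0 in the hybrid, against 54 and 58 in the homozygote. As whole cultures were sequenced, less RNA per cell and fewer expressing cells cannot be told apart. With a mean scaled value of at least 10, 4492 genes were tested. The highest values of a column shared a ceiling, with 3 and 5 genes within 2% of the maximum in the hybrid columns and 8 and 9 genes in the homozygote columns, so that differences between the most abundant transcripts could be compressed or exaggerated; this was not tested.

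**Figure D1:**
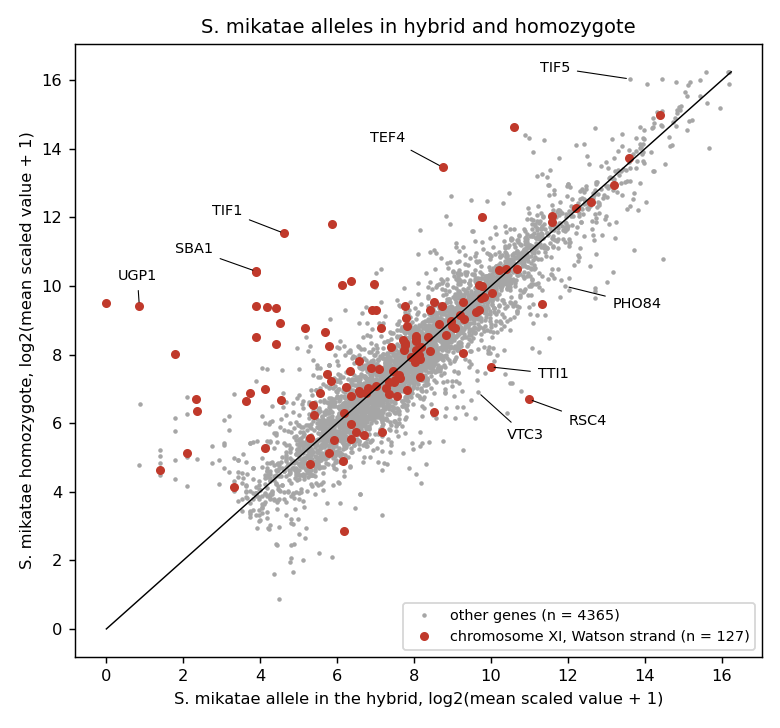
Mean scaled value of each of 4492 tested genes in the S. mikatae alleles of the hybrid (x axis) and in the S. mikatae homozygote (y axis), both as log2(mean of 2 replicates + 1), with the line of equality. Genes of the Watson strand of chromosome XI, in red (n = 127), include the points farthest above the line, such as UGP1, TIF1, SBA1 and TEF4, whereas RSC4 and TTI1 lie below it.

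Most S. mikatae genes had similar values in both settings. The median log2 difference was 0.07, the quartiles were -0.30 and 0.44, and the percentiles 5 and 95 were -1.31 and 1.24. Across genes, which are not independent replicates, the correlation of log2 values was 0.904 between hybrid replicates and 0.895 between homozygote replicates, against 0.868 to 0.876 between groups. By limma with Benjamini-Hochberg adjustment, no gene passed an adjusted p of 0.05 (0% of 4492), and the smallest adjusted p was 0.0722. At an unadjusted p under 0.05 stood 368 genes (8.19%), of which 191 were higher in the hybrid (4.25%) and 177 were lower (3.94%). A log2 difference of at least 1 in either direction was measured for 689 genes, and in 527 of these (11.7% of all tested) the replicates of both groups did not overlap. When the S. cerevisiae alleles of the same hybrid libraries and their homozygotes were added to the fit, so that 8 columns shared an estimate of the spread and both alleles of a hybrid library entered as separate columns, 24 of 4567 genes (0.526%) passed, 19 lower and 5 higher in the hybrid. Accordingly, differences are given below as measured values. The planned test was the fit of the S. mikatae columns alone, which called no gene. A gene is said to have risen or fallen only where the larger fit, an alternative, called it. The spread in that fit comes partly from S. cerevisiae alleles. Between the planned and the larger fit, the limma adjusted p went from 0.155 to 0.0082 for KCC4 and from 0.198 to 0.631 for POL4. The genes named were chosen after their values were seen.

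The largest log2 difference in each direction lay on a single chromosome and strand. Genes are called Watson or Crick by the suffix of their systematic names, W or C, which gives the strand of the S. cerevisiae ortholog. Among the 127 tested Watson-strand genes of chromosome XI, the log2 difference had an SD of 2.27 over genes, against 0.779 over the 4365 other genes and between 0.630 and 1.11 in each of the other 31 sets formed by chromosome and strand. In this set, 32 genes were at -2 or below and 5 at 2 or above, which is 29.1% of the set, against 2.93% of all other genes. An unadjusted p under 0.05 was reached by 49 of the 127 genes (38.6%), 40 lower and 9 higher, and by 319 of the 4365 other genes (7.31%). Of the 24 genes called in the larger fit, 15 were in this set, and 14 of these were lower in the hybrid.

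**Figure D2:**
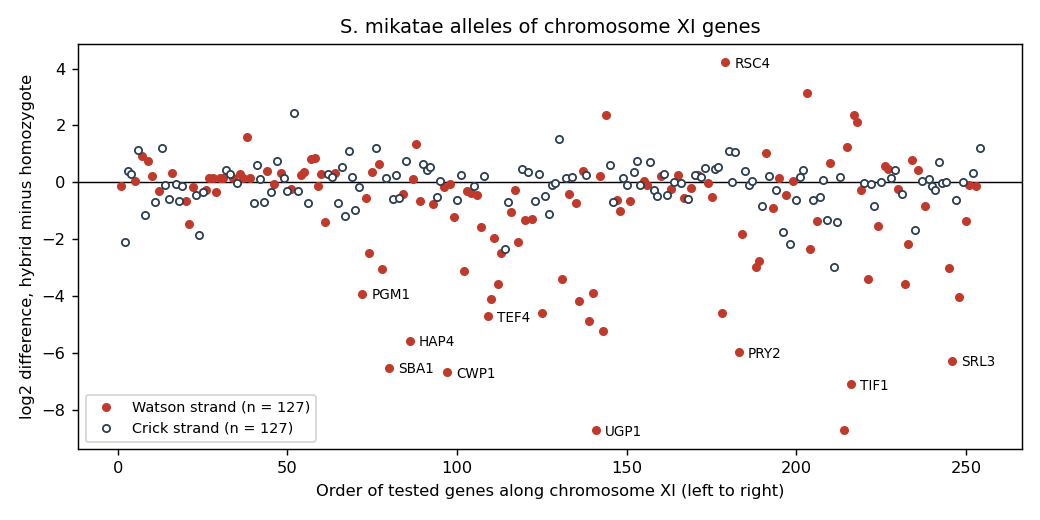
Log2 difference, hybrid minus homozygote, of the S. mikatae alleles of tested chromosome XI genes with a position in the reference, in their order along the S. cerevisiae chromosome (x axis, rank), with Watson-strand genes filled in red (n = 127) and Crick-strand genes open (n = 127). Watson genes lie within 2 of 0 up to PGM1 and scatter down to -8.73 for UGP1 from there on, whereas most Crick genes lie within 2 of 0 throughout.

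The low values began at PGM1, the first Watson gene from the left at -2 or below, and the genes were divided there after their values were seen, which fixes that no low gene lies to its left. The 33 Watson genes to the left of PGM1 had an SD of 0.584 and a highest value under 2, while the 94 from PGM1 to the right end had an SD of 2.49 and held the 32 low genes and the 5 high ones. The 128 tested Crick-strand genes of the same chromosome had an SD of 0.866, with 5 genes at -2 or below and 1 at 2 or above. In windows of 20 neighbouring genes of both strands, the lowest of 4184 medians was -1.31, between SRX1 and TOA2 of chromosome XI, against -0.49 as the lowest on any other chromosome and 0.67, between HOC1 and YUH1 of chromosome X, as the highest. Medians of whole chromosomes were between -0.11, for XI, and 0.14, for IV.

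SBA1 (YKL117W), which encodes the p23 co-chaperone of Hsp90, had scaled values of 13.2 and 14.6 in the hybrid, against 1209.8 and 1539 in the homozygote. It had the smallest p of all genes, with a log2 difference of -6.52 (SE 0.274, limma adjusted p = 0.0722), and fell in the larger fit (adjusted p = 0.0028). UGP1 (YKL035W), the UDP-glucose pyrophosphorylase that supplies glycogen, trehalose and cell-wall synthesis, was at 0 and 1.62 in the hybrid, against 722 and 655 in the homozygote, and likewise fell in the larger fit (adjusted p = 0.0028). TIF1 (YKR059W), one of the paralogous genes for the translation initiation factor eIF4A, was at 11.5 and 35.7 in the hybrid, against 3286 and 2660.5 in the homozygote (log2 difference -7.11, SE 0.599). Because TIF1 has a nearly identical paralog, TIF2, its values depend on how reads shared between them were handled.

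TEF4 (YKL081W), a gamma subunit of the elongation factor complex eEF1B, had 376 and 478 in the hybrid, against 9873 and 12751 in the homozygote (log2 difference -4.72, SE 0.299). HAP4 (YKL109W), the activating subunit of the transcription factor complex that drives respiratory genes, had 18.1 and 9.73 in the hybrid, against 696 and 680.3 in the homozygote. RGT1 (YKL038W), the repressor of hexose transporter genes, had 18.1 and 22.7 in the hybrid, against 309 and 329 in the homozygote. All 3 genes fell in the larger fit, with adjusted p-values of 0.0028, 0.003 and 0.0039. PGM1 (YKL127W), a phosphoglucomutase, had 61.0 and 76.2 in the hybrid, against 1179.7 and 921 in the homozygote. The cell-wall mannoprotein gene CWP1 (YKL096W) had 4.95 and 22.7 in the hybrid, against 787 and 1918 in the homozygote, and PRY2 (YKR013W), a secreted sterol-binding protein, had 36.3 and 77.8 against 2472 and 4759. In each of these genes the groups were separated by far more than the replicates of either. YKL033W-A, PTM1, DHR2 (a helicase of ribosome synthesis) and TOA2 (a subunit of the general factor TFIIA) also fell in the larger fit.

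Several Watson-strand genes to the right of PGM1 were higher in the hybrid. RSC4 (YKR008W), a subunit of the RSC chromatin remodeler, had 2671 and 1379.8 in the hybrid, against 116 and 89.4 in the homozygote, the largest positive log2 difference of any tested gene at 4.22 (SE 0.426, limma adjusted p = 0.155). TTI1 (YKL033W), of the ASTRA complex that acts on PI3K-like kinases, had 1043 and 989 in the hybrid, against 219 and 178 in the homozygote, and it rose in the larger fit (adjusted p = 0.0184). UTP30 (YKR060W), which works in small-subunit ribosome synthesis, had 2244 and 2881 in the hybrid, against 192 and 1229.6 in the homozygote, where the replicates differed widely.

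Some of these genes lie directly downstream of one that was lower. The gene order was taken from the RefSeq annotation of S. cerevisiae, assembly R64. YKL033W-A, with 14.8 and 19.5 in the hybrid, against 651 and 689.9 in the homozygote, is followed on its strand by TTI1, and the sum over this pair was 1057 and 1008.5 in the hybrid, against 870.3 and 868 in the homozygote. TIF1 is followed by UTP30, and their sum was 2255 and 2917 in the hybrid, against 3478 and 3890.1 in the homozygote. The sums of these neighbours thus differed far less between groups than either gene did. The same did not hold for all pairs. MEH1, at a log2 difference of -4.61, is followed by RSC4. Their sum was 2671 and 1387.9 in the hybrid, against 294 and 119 in the homozygote. The higher hybrid values of RSC4 thus had no counterpart of like size in MEH1. UGP1 and its neighbour TUL1 summed to 144 and 165 in the hybrid, against 857 and 780.1 in the homozygote. Over the 21 low Watson genes whose next gene was on the same strand, the next gene had a median log2 difference of -0.32 and 3 were at 2 or above, compared with a median of -0.27 and 1 of 38 after the other Watson genes.

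The chromosome XI pattern was not particular to S. mikatae alleles. The SD over Watson-strand genes of chromosome XI, hybrid minus homozygote, was 2.64 for the S. cerevisiae alleles of the same hybrid, 2.71 for S. paradoxus alleles and 2.55 for S. bayanus alleles in their own hybrids, and in each case it was the highest of the 32 sets. As a description across genes, the log2 differences of S. mikatae alleles had a correlation with those of the S. cerevisiae, S. paradoxus and S. bayanus alleles of 0.689, 0.803 and 0.696 over 127, 125 and 126 Watson genes of chromosome XI. Over the other genes, 4250 to 4267 of them, the correlations were 0.00029, 0.071 and 0.057. Of the 31 Watson genes at -2 or below for S. mikatae that were tested for every species, 16 were at -2 or below in all 4 comparisons. UGP1 was at -8.73 for S. mikatae alleles, -7.15 for S. cerevisiae, -5.44 for S. paradoxus and -7.45 for S. bayanus. TIF1 was at -7.11, -7.51, -11.19 and -8.50 in the same order. These genes were thus lower in the hybrid for the alleles of each of the 4 species. Whether the regions in which reads were counted for this strand differed between the hybrid and the homozygote files was not tested.

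**Figure D3:**
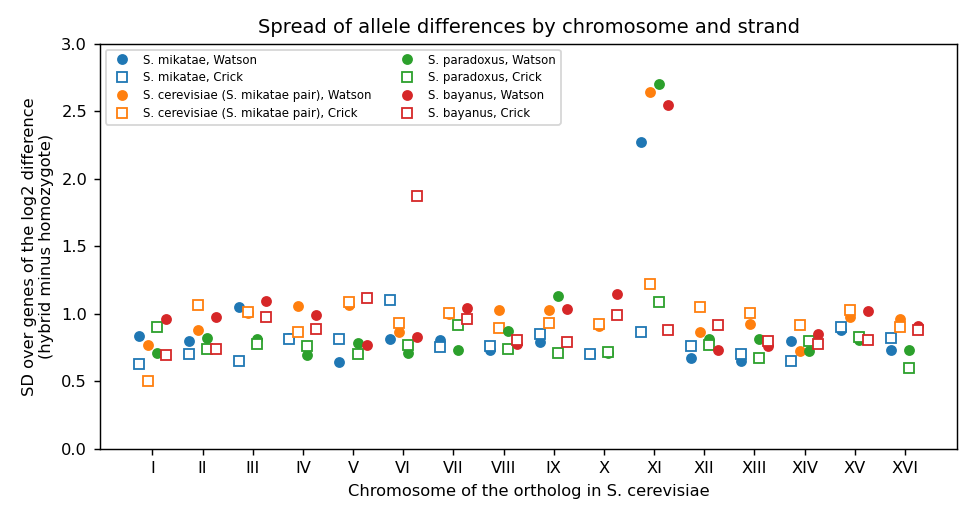
SD over genes of the log2 difference, hybrid minus homozygote, for each chromosome and strand (x axis, chromosome of the S. cerevisiae ortholog, with Watson filled circles and Crick open squares) and for the alleles of 4 comparisons by colour. The Watson strand of chromosome XI lies at 2.27 for S. mikatae alleles and between 2.55 and 2.71 for the others, above every other set of its own comparison.

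In 9 Watson-strand genes of chromosome XI, the S. mikatae difference itself differed from that of S. bayanus alleles, and in both directions. PGM1 was at -3.91 for S. mikatae and 0.13 for S. bayanus (difference -4.04, limma adjusted p = 0.0158), and RGT1 was at -3.91 and -0.18 (difference -3.73, adjusted p = 0.0163). TEF4 was at -4.72 and -0.34 (difference -4.38, adjusted p = 0.0409), and in S. bayanus its values were 9774 and 14834 in the hybrid, against 11525 and 20182 in the homozygote. The low hybrid values of PGM1, RGT1 and TEF4 were thus not shared by S. bayanus alleles. SRL3 was at -6.28 for S. mikatae and -0.35 for S. bayanus, but its S. bayanus values were low in both groups. They were 14.8 and 16.3 in the hybrid, against 12.7 and 31.2 in the homozygote. Differences more negative for S. bayanus were measured for SRX1, a sulfiredoxin gene, at -0.46 for S. mikatae and -6.26 for S. bayanus. The same held for ABF1, a general DNA-binding factor, at -0.40 and -5.03, and for VPS51, of a Golgi tethering complex, at -2.99 and -7.96. YKL033W-A was low and TTI1 high for the alleles of both species, by different amounts.

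Without the Watson-strand genes of chromosome XI, the log2 differences of S. mikatae alleles were mostly of the size of the replicate spread. Over the 4365 remaining genes, their variance was 0.607, and the spread between replicates alone gives 0.504, which leaves 0.103, or 17.0% of the variance. The same excess was 0.079 for S. paradoxus alleles, 0.453 for the S. cerevisiae alleles of the S. mikatae hybrid and 0.461 for S. bayanus alleles. Within the hybrid, the excess was smaller for S. mikatae alleles than for S. cerevisiae alleles, as a description over genes that carries no test. Strain differences can enter both values, as neither homozygote was a parent strain of the hybrid. No gene passed with these 127 genes left out, and 321 of 4365 stood at an unadjusted p under 0.05.

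Phosphate genes gave the highest median of the 45 gene groups examined, except without hybrid replicate 1 or homozygote replicate 1, where the 8 genes of galactose and maltose use were higher at 0.54 and 0.69. In yeast, low phosphate activates the transcription factor Pho4 through the kinase inhibitor Pho81, and among its targets are the high-affinity transporter PHO84 and the VTC genes, whose products make vacuolar polyphosphate. Of 15 tested genes of the group, none passed the adjusted test, 5 were higher (33.3%, against 4.25% of all genes) and 0 lower in the hybrid at an unadjusted p under 0.05, and 12 were above 0, with a median log2 difference of 0.65, against 0.07 over all genes. The median was between 0.46 and 0.83 under all alternatives tried.

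PHO84 (YML123C) had scaled values of 4314 and 3523 in the hybrid, against 1142.5 and 894 in the homozygote (log2 difference 1.95, SE 0.288, limma adjusted p = 0.211). PHO81 (YGR233C) had 310.2 and 282 in the hybrid, against 55.4 and 89.4 in the homozygote. VTC3 (YPL019C), a regulatory subunit of the polyphosphate polymerase, had 721 and 902 in the hybrid, against 135 and 102 in the homozygote, and it rose in the larger fit (log2 difference 2.77, adjusted p = 0.0177). VTC1, a membrane subunit, had 893 and 872 in the hybrid, against 405 and 462 in the homozygote, and VTC4, the catalytic subunit, had 657 and 796 against 404 and 457. VTC2 followed with 353 and 282 in the hybrid, against 172 and 226 in the homozygote (log2 difference 0.67). Without overlap between groups, 8 of the 15 genes were higher in the hybrid, against 23.9% of all tested genes, namely these 6 with PHO86 and PHO87.

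Differences were smaller for the low-affinity phosphate transporter genes. PHO87 was at 0.45, PHO90 at -0.01 and PHO91 at 0.19 on the log2 scale, and PHO80, the cyclin that keeps Pho4 inactive in high phosphate, was at -0.96 (SE 0.601). VTC5 was at -0.04 and PHO8 at 0.06, so that neither followed the higher genes. PHM8 was at 0.19 with wide gaps between replicates (SE 2.52). PHM7 had 302 and 16.2 in the hybrid, against 45.9 and 44.3 in the homozygote, so that 1 hybrid library decided its value of 0.65, which was itself the median of the group. PHO3, PHM6, PHO4, PHO92 and GDE1, listed with the group, were below the minimum mean for S. mikatae.

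The S. cerevisiae alleles of PHO84, PHO81, VTC1, VTC2, VTC3 and VTC4, read in the same hybrid libraries, had values in the opposite order or close to even. PHO84 had 3281 and 4928 in hybrid S. cerevisiae alleles, against 7120 and 6268 in S. cerevisiae homozygotes, a log2 difference of -0.73. The difference between the species' log2 differences was 2.68 for PHO84, 2.78 for PHO81 and 3.19 for VTC3 (SE 0.403, adjusted p = 0.063), and none of these passed. In scaled units, the PHO84 alleles of the hybrid, at 4314 and 3523 for S. mikatae and 3281 and 4928 for S. cerevisiae, thus overlapped, whereas the homozygotes, at 1142.5 and 894 for S. mikatae and 7120 and 6268 for S. cerevisiae, did not. In the other hybrids, PHO84 was at 1.51 for S. paradoxus and 1.59 for S. bayanus alleles. In the same order, PHO81 was at 1.08 and 0.77, VTC1 at 0.49 and 0.77, VTC2 at 0.84 and 0.83, and VTC4 at 0.67 and 0.69. VTC3 was at 1.51 for S. bayanus alleles and below the minimum mean for S. paradoxus. Higher values in the hybrid were thus not particular to S. mikatae alleles.

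**Figure D4:**
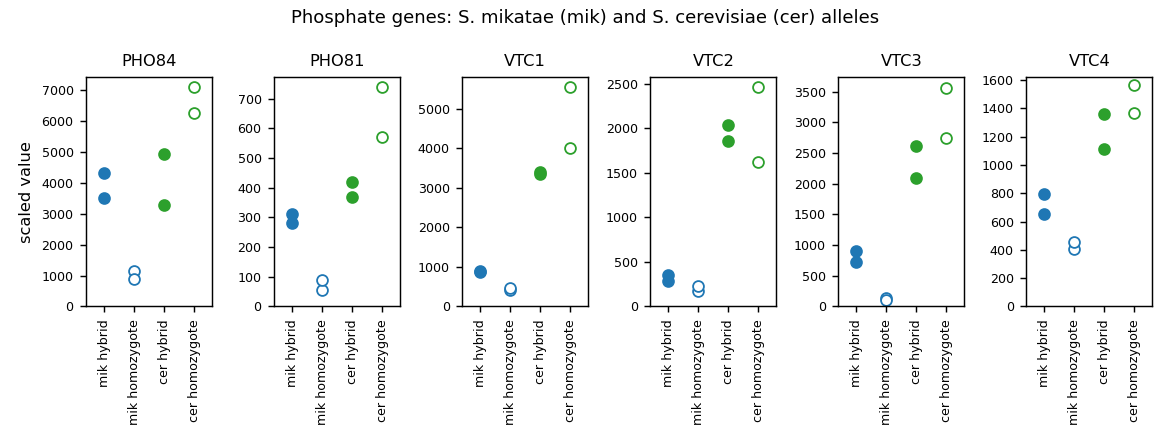
Scaled values of 6 phosphate genes (y axes, each from 0) in the 2 replicates of S. mikatae alleles in the hybrid and in the S. mikatae homozygote (blue), and of S. cerevisiae alleles in the same hybrid and in the S. cerevisiae homozygote (green), with hybrids filled and homozygotes open. S. mikatae alleles were higher in the hybrid for each gene, as for PHO84 at 4314 and 3523 against 1142.5 and 894.

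Among the remaining genes higher in the hybrid, those with the smallest p included PSF3 and RFC5. PSF3 (YOL146W), a subunit of the GINS complex of the replicative helicase, had 267 and 297 in the hybrid, against 40.4 and 39.0 in the homozygote, a log2 difference of 2.80 (SE 0.257, limma adjusted p = 0.122). RFC5 (YBR087W), of the clamp loader, had 3052 and 2399.7 in the hybrid, against 609 and 537 in the homozygote. RFC2, of the same complex, had 525 and 362 in the hybrid, against 64.1 and 171 in the homozygote. In these 3 genes the groups did not overlap, which was a condition for naming PSF3 and RFC5. Of all tested genes, 23.9% were higher in the hybrid without overlap. Over the 52 tested replication genes, however, the median was 0.10, close to the 0.07 of all genes, with 4 higher (7.69%, against 4.25% of all genes) and 1 lower, RNR2 (1.92%, against 3.94%), at an unadjusted p under 0.05. POL4 (YCR014C), the repair polymerase of end joining, had 4126 and 4169 in the hybrid, against 1017.5 and 882 in the homozygote.

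KCC4 (YCL024W), a septin-associated kinase of the bud neck, had 371 and 258 in the hybrid, against 22.2 and 32.1 in the homozygote. Its log2 difference was 3.49 (SE 0.365), and it rose in the larger fit (adjusted p = 0.0082). MAM3 (YOL060C), a protein of the vacuolar membrane, had 576 and 652 in the hybrid, against 19.8 and 52.1 in the homozygote, and rose in the larger fit (adjusted p = 0.0334). FRE3 (YOR381W), a reductase of iron-siderophores, had 805 and 503 in the hybrid, against 74.4 and 76.4 in the homozygote (log2 difference 3.06, SE 0.333). DBR1, the debranching enzyme of intron lariats, had 467 and 441 in the hybrid, against 66.5 and 104 in the homozygote. SRB7, a Mediator subunit, and EXO70, of the exocyst, were at 2.36 and 1.81 on the log2 scale. Among the 44 genes of endocytosis and cortical actin, 3 were higher (6.82%, against 4.25% of all genes) and 0 lower at an unadjusted p under 0.05, which is near the background, with a median of 0.02 whose sign changed with the scaling. ARP2, of the Arp2/3 complex that nucleates branched actin, had 342 and 371 in the hybrid, against 95.7 and 54.7 in the homozygote. ARC35, of the same complex, had 1339.6 and 1379.8 in the hybrid, against 471 and 530.2 in the homozygote, and SAC6, the actin bundler fimbrin, had 1759 and 1910.0 against 919 and 887.

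Genes lower in the hybrid outside chromosome XI belonged to varied functions. DAM1 (YGR113W), of the outer kinetochore, had 117 and 81.1 in the hybrid, against 558 and 634 in the homozygote, and fell in the larger fit (log2 difference -2.60, SE 0.303, adjusted p = 0.0184). FTR1 (YER145C), the permease of high-affinity iron uptake, had 2579 and 2554 in the hybrid, against 10645 and 8996 in the homozygote, and fell in the larger fit (adjusted p = 0.0446). NUP60, a nucleoporin of the nuclear basket, had 407 and 519 in the hybrid, against 1724 and 1543 in the homozygote (adjusted p in the larger fit 0.0467). SLG1 (YOR008C), the cell-wall stress sensor also called WSC1, had 881 and 1012 in the hybrid, against 4509 and 6841 in the homozygote. YCT1, a cysteine transporter, had 155 and 146 in the hybrid, against 589 and 529 in the homozygote, and RSB1, a transporter of sphingoid bases, had 70.9 and 71.3 against 279 and 325. KNS1, a kinase of the LAMMER family, had 21.4 and 9.73 in the hybrid, against 188 and 202 in the homozygote. SLG1, YCT1, RSB1 and KNS1 were not called in the larger fit, with limma adjusted p-values of 0.672, 0.593, 0.479 and 0.542. Some S. cerevisiae replicates in that fit differed widely, with homozygotes at 87.5 and 3222 for SLG1 and at 156 and 3.53 for KNS1. APT2, a gene resembling that for adenine phosphoribosyltransferase, had 16.5 and 29.2 in the hybrid, against 202 and 172 in the homozygote, and fell in the larger fit (adjusted p = 0.0433).

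**Figure D5:**
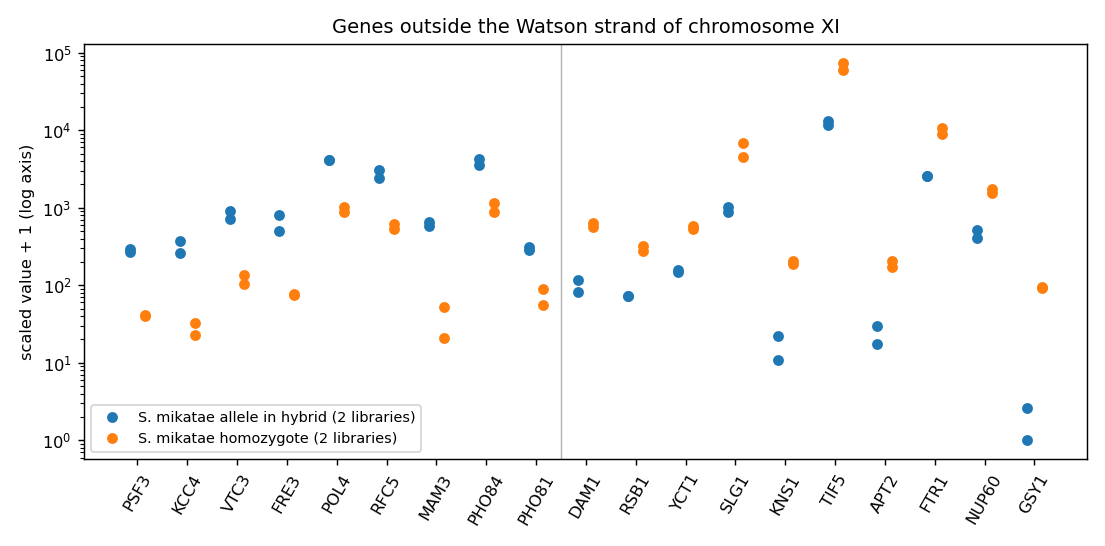
Scaled value + 1 (y axis, log scale) of 19 genes outside the Watson strand of chromosome XI in the 2 replicates of S. mikatae alleles in the hybrid (blue, left of each pair) and of the S. mikatae homozygote (orange, right), with genes higher in the hybrid left of the grey line and lower ones right of it. Replicates of both groups are separated in every gene shown, a condition under which most of them were chosen. DAM1, for example, was at 117 and 81.1 in the hybrid against 558 and 634 in the homozygote.

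The initiation factor eIF5 gene TIF5 (YPR041W) had 13257 and 11819 in the hybrid, against 60556 and 73986 in the homozygote, where the second replicate lay within 2% of the highest scaled value of its column, 74270. Of 40 tested translation factors, 4 were lower (10%, against 3.94% of all genes) and 1 was higher at an unadjusted p under 0.05, with a median of -0.12. The lower ones were TIF1 and TEF4, on the Watson strand of chromosome XI, TIF5, and GCD11, the gamma subunit of eIF2, with 1319.8 and 1315 in the hybrid, against 3649.9 and 3236 in the homozygote. The higher one, TIF4631, encoding eIF4G, had 8481 and 36597 in the hybrid, against 2462 and 1102 in the homozygote, with a wide gap between the hybrid replicates. The 107 cytosolic ribosomal protein genes had a median of -0.08 with 1 higher (0.935%) and 3 lower (2.8%). The 72 mitochondrial ones had a median of 0.12 with 4 higher (5.56%) and 2 lower (2.78%). Over all genes, the shares were 4.25% higher and 3.94% lower. The sign of the first of these medians and of that of the translation factors changed with the scaling.

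Reserve carbohydrate genes had the lowest median of the 45 groups, a rank that depended on the setting. Yeast stores glucose as glycogen and as the disaccharide trehalose, both built from UDP-glucose. The 16 tested genes of both pathways had a median log2 difference of -0.48, and 13 of them were at or below 0, with 1 higher and 2 lower (12.5%, against 3.94% of all genes) at an unadjusted p under 0.05. UGP1, described above, and GSY1 (YFR015C), a glycogen synthase, were the lower ones. GSY1 had 1.65 and 0 in the hybrid, against 94.9 and 92.0 in the homozygote, and fell in the larger fit (adjusted p = 0.023). GPH1, the glycogen phosphorylase, had 77.5 and 76.2 in the hybrid, against 32.4 and 30.4 in the homozygote. TPS1 and TPS2, the trehalose synthesis enzymes, were at -0.53 (SE 0.277) and -0.69 (SE 0.467) on the log2 scale, and neither stood at an unadjusted p under 0.05. Without UGP1 the median was -0.43. Under the alternatives it was between -0.73 and -0.23, with the higher of these at a mean of at least 50, where the hexose transporter group was lower at -0.89. With any 1 library left out, the hexose transporter or the arginine group had the lowest median.

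Other groups showed few members past an unadjusted p of 0.05. Of 31 citrate cycle and gluconeogenesis genes, 4 were lower (12.9%, against 3.94% of all genes) and 0 higher, with a median of -0.20. Without the Watson-strand genes of chromosome XI, which include MDH1, 3 were lower. Among these PYC2, a pyruvate carboxylase, had 959 and 1043 in the hybrid, against 2975 and 2416 in the homozygote. Of 14 arginine genes, 3 were lower (21.4%) and 0 higher, including ARG1, argininosuccinate synthase, with 473 and 652 in the hybrid, against 1359 and 1319.8 in the homozygote. Of 11 zinc genes, 3 were lower (27.3%), with COT1, a vacuolar transporter, at 3.30 and 1.62 in the hybrid, against 28.5 and 111 in the homozygote. Of 10 hexose transporter and glucose-sensing genes, 3 were lower (30%): HXT4, HXT2 and RGT1, the last on the Watson strand of chromosome XI. HXT2 had 10946 and 23311 in the hybrid, against 81179 and 39798 in the homozygote, whose first replicate was within 2% of its column's highest value. Of the 30 ergosterol genes and the 28 cyclins and cell-cycle genes, none stood at an unadjusted p under 0.05, and the medians were -0.05, a sign that changed with the scaling, and -0.26. Across the 45 groups, 37 medians were within 0.25 of 0, and no group held a gene past the adjusted threshold.

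The difference between hybrid and homozygote was then compared with that of other alleles, gene by gene. Against the S. cerevisiae alleles of the same hybrid, 5 of 4567 genes (0.109%) had S. mikatae differences that differed at a limma adjusted p of 0.0499 each, and 638 did at an unadjusted p under 0.05. The S. mikatae alleles of PRM5, a membrane protein gene of the cell-integrity pathway, had 23.1 and 19.5 in the hybrid, against 0.791 and 0.868 in the homozygote, where each value stands for a single weighted read, whereas the S. cerevisiae alleles had 18.7 and 33.8 in the hybrid, against 258 and 231 in the homozygote. GCV2, the glycine decarboxylase, had 327 and 566 in hybrid S. mikatae alleles, against 112 and 128 in the homozygote, and 31.7 and 19.6 in hybrid S. cerevisiae alleles, against 309.7 and 327 in the homozygote. WBP1, a subunit of the oligosaccharyltransferase, had 4872 and 4916 in hybrid S. mikatae alleles, against 1859 and 1539 in the homozygote, with S. cerevisiae alleles at 1293 and 1349 in the hybrid, against 3765 and 3975 in the homozygote. In these genes the values of both species' alleles lay in opposite directions from their homozygotes. KCC4 was the fourth gene. The fifth, URA1, the dihydroorotate dehydrogenase of pyrimidine synthesis, is a Watson-strand gene of chromosome XI. It was even in S. mikatae, with 13596 and 11185 in the hybrid, against 14891 and 12269 in the homozygote. Its difference came from the S. cerevisiae alleles. SAC1, the next tested gene on that strand, was at 4.65 for S. cerevisiae and 0.04 for S. mikatae alleles. No gene passed when any 1 of the 6 libraries was left out, and 13 passed in a fit with the hybrid library as a block, since both alleles of a hybrid were read in the same libraries.

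Against S. paradoxus alleles, 0 of 4566 genes (0%) passed by limma, and 320 stood at an unadjusted p under 0.05. Against S. bayanus alleles, 35 of 4563 (0.767%) passed, 15 with a higher and 20 with a lower S. mikatae difference, and 9 of these were Watson-strand genes of chromosome XI. The count was between 0 and 10 when any 1 of the 8 libraries was left out. FTR1 was among them, with a log2 difference of -1.93 for S. mikatae and 2.22 for S. bayanus alleles (difference -4.15, adjusted p = 0.00743). TIF5, GSY1, APT2, FRE3 and PRM5 also differed between these species.

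Marker loci were read as a check of the labels. LYS2, deleted on the S. cerevisiae side of the hybrid, had 1.87 and 0 in hybrid S. cerevisiae alleles, against 134 and 135 in the S. cerevisiae homozygote, and its S. mikatae allele had 216 and 214 in the hybrid, against 313 and 295 in the homozygote. HIS3, the locus deleted on the S. mikatae side, was not analysed here. Of 5 other histidine genes, HIS6 was lower, with 209.5 and 221 in the hybrid, against 564 and 574 in the homozygote, and the rest were between 0.16 and 1.37 on the log2 scale. LEU2 and URA3 had overlapping values in both groups, at 0.09 and -0.12 on the log2 scale. MET17, also called MET15, had 2183 and 666 in the hybrid, against 2829 and 10622 in the homozygote, a log2 difference of -2.18 (SE 0.931) with wide gaps between replicates. Of 26 haploid-specific and mating genes, 16 passed the minimum mean. The receptor gene STE3 had 1.65 and 1.62 in the hybrid and was listed at 0 in the homozygote, while GPA1, the G-protein alpha subunit that diploids repress, had 1.65 and 1.62 in the hybrid, against 3.96 and 6.07 in the homozygote. Other members were not near 0, so that the group gives no clear check of the labels. MFA2 had 137 and 118 in the hybrid, against 176 and 160 in the homozygote. SST2 had 261 and 196 in the hybrid, against 82.3 and 155 in the homozygote. STE12, the transcription factor of the mating response, was the only gene of the group at an unadjusted p under 0.05, with 94.04 and 101 in the hybrid, against 274 and 296 in the homozygote. The group summed to 1359 and 4326 in the hybrid, against 1411.5 and 1511 in the homozygote, and STE20 alone, with 198 and 3347 in the hybrid, against 140.04 and 103 in the homozygote, held most of the excess of the second hybrid replicate.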

How the data were processed

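Ends of poly-adenylated transcripts were sequenced from 18 cultures, and the S. mikatae columns of 2 hybrid and 2 homozygote libraries were compared. The deposited values are scores. As the authors describe, paired reads of 36 bases were called with CASAVA 1.7, mapped with Bowtie 0.12.7 to both genomes of a species pair with unique hits kept, and counted over open reading frames with their downstream flank. They then weighted each gene's reads for GC content and rounded the result, without scaling between libraries. The scores are therefore not raw counts, and no interval for counting error was computed. S. mikatae coordinates and sequences were not used here.

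Each column was divided by its upper quartile and multiplied by the mean over columns, 543. Differences were tested with limma 3.58.1 (R 4.3.3, moderated variances following mean intensity) after adding 1 and taking log2, in genes averaging 10 or more, at a Benjamini-Hochberg adjusted p of 0.05. The code was tested on simulated data. Totals were lower in the hybrid, so that low genes were less precise there. Replicates were separate biological cultures of 1 strain each. Their numbers mark no shared source, and same-numbered deviations correlated at 0.054. Symbols and gene order came from the RefSeq table of S. cerevisiae assembly R64, which held 4722 of 4730 systematic names. The S. cerevisiae homozygote libraries were the 2 counted with the S. mikatae genome, replicates 3 and 4. Named genes were to be those past the threshold, averaging at least 100 without overlap. As none passed, those with the smallest p under these limits were taken after their values were seen, together with marker loci and leading genes of each group. Members and gene groups were chosen with earlier results of these data known. Alternatives covered scaling, filters, constants, the replicate block, the larger fit, a minimum difference, thinning of the homozygote values and left-out libraries. Leaving out Watson-strand genes of chromosome XI was chosen after seeing the data. Figures were drawn with Matplotlib 3.10.9. The result for 1 gene is not reported here.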

Additional observations from a re-analysis of the deposited data

Results flagged for a closer look

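These genes are listed because the S. mikatae difference, hybrid minus homozygote, itself differed from that of another species' alleles in a limma test of the difference with Benjamini-Hochberg adjustment. Values are S. mikatae minus the other species on the log2 scale. Against the S. cerevisiae alleles of the same hybrid, the value was 6.83 for PRM5, 5.46 for GCV2, 4.16 for KCC4, 3.08 for WBP1 and -4.09 for URA1, each with an adjusted p of 0.0499. Of these, only URA1 is a Watson-strand gene of chromosome XI.

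Against S. bayanus alleles, Watson-strand genes of chromosome XI gave -4.04 for PGM1, -3.73 for RGT1, -4.38 for TEF4, -5.94 for SRL3, -2.39 for YKL033W-A and -2.32 for TTI1. On the same strand, 3 genes differed the other way, with 5.80 for SRX1, 4.63 for ABF1 and 4.97 for VPS51. SRL3 had scaled values of 1.65 and 3.24 in the S. mikatae hybrid, against 246 and 275 in the homozygote. Outside that strand, the value was -4.15 for FTR1, -6.07 for GSY1, -3.13 for TIF5, -3.75 for APT2, 4.51 for SPS19, 3.67 for FRE3 and 4.77 for PRM5. Adjusted p-values against S. bayanus were between 0.00743, for FTR1, and 0.0457, for YKL033W-A. SPS19, a peroxisomal reductase used in the oxidation of unsaturated fatty acids, had 52.8 and 61.6 in S. mikatae alleles of the hybrid, against 3.16 and 3.47 in the homozygote.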

How the results depend on the processing

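The S. mikatae comparison called 0 genes in the planned test, 2 with 10 added before log2 (SBA1 and UGP1) and 24 in the fit of 8 columns, which has more residual degrees of freedom. It called 0 under every other alternative run, including each left-out library. With the replicate number as a block, 0 genes were called and 340 stood at an unadjusted p under 0.05. Against S. cerevisiae alleles, the count of 5 became 11 with scaling by total, 9 with 10 added, 0 without a filter, 0 with a mean of at least 50, 13 with the hybrid library as a replicate block and 37 with all 6 S. cerevisiae homozygotes. It was 0 to 0 with any library left out. Against S. bayanus, 35 became 23 without a filter and 0 to 10 with a library left out; against S. paradoxus it was 0 throughout. The cause of these changes was not tested. The median of all S. mikatae differences was 0.07, and 0.19 with scaling by total. Of 110 named genes, 1721 of 1723 values kept their direction. The 2 exceptions were URA1, at -0.13, which ranged from -0.27 to 0.0084 with a library left out.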
